A study of Mus musculus with 12 samples.

Results

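The mRNAs of 7 membrane transporters that move glutamate and GABA were examined in RNA immunoprecipitation sequencing (RIP-seq) libraries of cultured hippocampal neurons. The members were Slc17a7 and Slc17a6, which encode the vesicular glutamate transporters VGLUT1 and VGLUT2, Slc32a1, which encodes the vesicular GABA transporter VGAT, Slc1a1, Slc1a2 and Slc1a3, which encode glutamate transporters of the plasma membrane, and Slc6a11, which encodes a GABA transporter of the plasma membrane. They were chosen by gene symbol, without use of any measured value, from the 55573 genes of the count table, and all 7 were found. All 7 passed the filter on low counts, which left 17126 genes for testing.

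Primary hippocampal neurons came from newborn wild-type C57BL/6 mice, an inbred laboratory strain, and were kept in culture for 14 days. Endogenous YTHDF1, YTHDF2 or YTHDF3 was pulled down from the lysate by a specific antibody. RNA on the beads was sequenced (YTHDF1 RIP, YTHDF2 RIP and YTHDF3 RIP), as was total RNA of the lysate taken without antibody (Input). There were 3 libraries in each of the 4 groups, and the comparison with Input asks which RNAs each protein binds. Every enrichment is relative to Input alone, since a pull-down with an unspecific antibody was not analysed here. Tissue of all pups of a litter, both sexes, was pooled for a culture, and Ara-C, which kills dividing cells, was added to limit glia. The methods describe 3 biological replicates, but neither they nor the labels say that these came from separate cultures. The p-values therefore measure the spread between these libraries, part of which may be technical.

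The YTHDF proteins sit in the cytoplasm and recognise N6-methyladenosine (m6A), a methylated adenosine found mainly in a short consensus near stop codons and in 3′ untranslated regions. Vesicular transporters load transmitter into synaptic vesicles, so that VGLUT1, VGLUT2 and VGAT define glutamatergic and GABAergic terminals. The plasma membrane transporters then clear transmitter from the extracellular space. In the hippocampus Slc1a2 and Slc1a3 are known mainly as astrocyte genes, with some Slc1a2 in neurons, Slc1a1 as a neuronal gene and Slc6a11 as an astrocyte gene.

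Positions are those of GRCm38, the build of the count table. Slc17a7 (ENSMUSG00000070570) spans chromosome 7, 45163949 to 45176142, and Slc17a6 (ENSMUSG00000030500) spans chromosome 7, 51622006 to 51671119, both on the plus strand. Slc32a1 (ENSMUSG00000037771) spans chromosome 2, 158610767 to 158615748, and Slc1a2 (ENSMUSG00000005089) spans chromosome 2, 102658659 to 102790784, both on the plus strand. Slc1a1 (ENSMUSG00000024935) spans chromosome 19, 28835049 to 28913960, and Slc6a11 (ENSMUSG00000030307) spans chromosome 6, 114131241 to 114249952, both on the plus strand. Slc1a3 (ENSMUSG00000005360) spans chromosome 15, 8634124 to 8710764, on the minus strand. No exon of a member overlapped an exon of another gene on its own strand. Exons on the opposite strand overlapped 24.9% of the exonic length of Slc32a1 (gene Gm14205), 31.9% of Slc1a1 (gene 4430402I18Rik) and 1.44% of Slc1a2 (gene Gm13872), and reads were counted by strand. Stretches of 50 bases shared with transcripts of any other gene on either strand made up 0% of the longest coding transcript of Slc17a7, Slc17a6, Slc1a3 and Slc6a11. They made up 1.49% of that of Slc1a2, where reads could also be counted for other genes. The shared stretches of Slc32a1 and Slc1a1 belonged to their antisense genes alone.

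Since m6A is what the proteins bind, the letters GGACT, a common form of the m6A consensus, were counted on the sense strand of the longest coding transcript of each gene in GENCODE M21. All 7 members held the motif, as did 87.6% of 21901 coding genes. Slc1a2 held 8 copies in 11595 bases, 6 of them after the stop codon, and Slc6a11 held 5 in 4132 bases. Slc17a7 held 4 in 2915 bases, Slc17a6 held 4 in 4137, Slc1a3 held 3 in 4163, Slc32a1 held 2 in 2797 and Slc1a1 held 2 in 3800. Per kilobase the members ran from 0.526 in Slc1a1 to 1.37 in Slc17a7, and the median of all coding genes was 1.01. Within 200 bases of the end of the stop codon, the motif was present in Slc17a7, Slc32a1 and Slc6a11, and in 36.2% of all coding genes. The copy nearest to the stop codon is shown with 10 bases on each side for the 4 members on which the comparisons turn most or whose copy touches the stop codon, with the motif in capitals. Those of Slc17a7 (chr7:45175025-45175049) and Slc32a1 (chr2:158614988-158615012) lie on the plus strand in the last coding exon, and those of Slc1a2 and Slc1a3 are read across an exon junction in the coding sequence.
Slc17a7: cccctgtccgGGACTactgaccacg
Slc32a1: ccaacgcagaGGACTagggggtggg
Slc1a2: tggtggcggtGGACTggctgctgga
Slc1a3: tcattgcagtGGACTggtttctgga
In Slc32a1 the last base of the motif is the first base of the stop codon, and in Slc17a7 the motif stands just before the stop codon. The windows of the related genes Slc1a2 and Slc1a3 were identical at 19 of 25 bases. A match is a description of the sequence, and methylation at these bases was not measured in these libraries.

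Total counts per library were between 6020072 and 38909592. Normalized read counts are given as CPM, counts per 1000000 counts of a library whose size was scaled with a TMM factor, which corrects for differences in composition. Astrocyte markers fixed as a list (Gfap, Aqp4, Aldh1l1, Gja1, S100b, Sox9, Aldoc and Fgfr3) were all present and summed to between 204 and 2108 CPM in Input. Their sum was 388 to 1044 CPM for YTHDF1, 771 to 1297 CPM for YTHDF2 and 148 to 1288 CPM for YTHDF3. Neuron markers summed to between 719 and 2190 CPM over the 12 libraries, markers of excitatory hippocampal neurons to between 197 and 870, and those of interneurons to between 123 and 706. Oligodendrocyte lineage markers summed to between 44.3 and 1369 CPM, almost all from the precursor genes Olig1, Olig2 and Pdgfra, with Mog at 0.214 CPM or less. The highest sum was that of YTHDF1 RIP library 1, where Olig1 alone was at 1194 CPM. The next highest was 499 CPM, in YTHDF3 RIP library 2. Microglial markers summed to 6.21 CPM at most and endothelial and mural markers to 26.3 CPM at most, with P2ry12 at 0 in 6 libraries and Cldn5 at 0 in 3. Neuron markers were thus present in every library of the labelled neurons, beside astrocyte RNA whose level differed widely between libraries.

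Per kilobase of exonic length, the scale on which levels of different genes were ranked, Slc1a2, Slc17a7 and Slc1a3 had the highest means in Input. The mean in Input was 73.6 ± 25.4 CPM per kilobase (SD, n = 3) for Slc1a2, 65.1 ± 31.2 for Slc17a7 and 58.2 ± 40.4 for Slc1a3. Slc6a11 followed at 24.8 ± 5.82, Slc32a1 at 23.4 ± 12.2, Slc1a1 at 9.10 ± 2.73 and Slc17a6 at 2.33 ± 0.975. Only Slc1a1 and Slc17a6, last in this order, were neighbours whose 3 Input values did not overlap. On this scale Slc17a6 was lowest in every group, and Slc1a2 had the highest mean in every group. Exonic length joins the exons of all transcripts of a gene, 5392 bases for Slc17a7, 8537 for Slc1a3 and 13133 for Slc1a2. Their longest coding transcripts held 2915, 4163 and 11595 bases, so the order of these members depends on the length used. An order by transcript length was not computed. In the YTHDF1 RIP and the YTHDF3 RIP the Slc1a2 values, from 56.8 to 161 and from 77.0 to 137, lay above all values of the next member, Slc1a3, which reached 45.9 and 64.7. In the YTHDF2 RIP Slc1a2 overlapped the next member, Slc17a7.

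**Figure D1:**
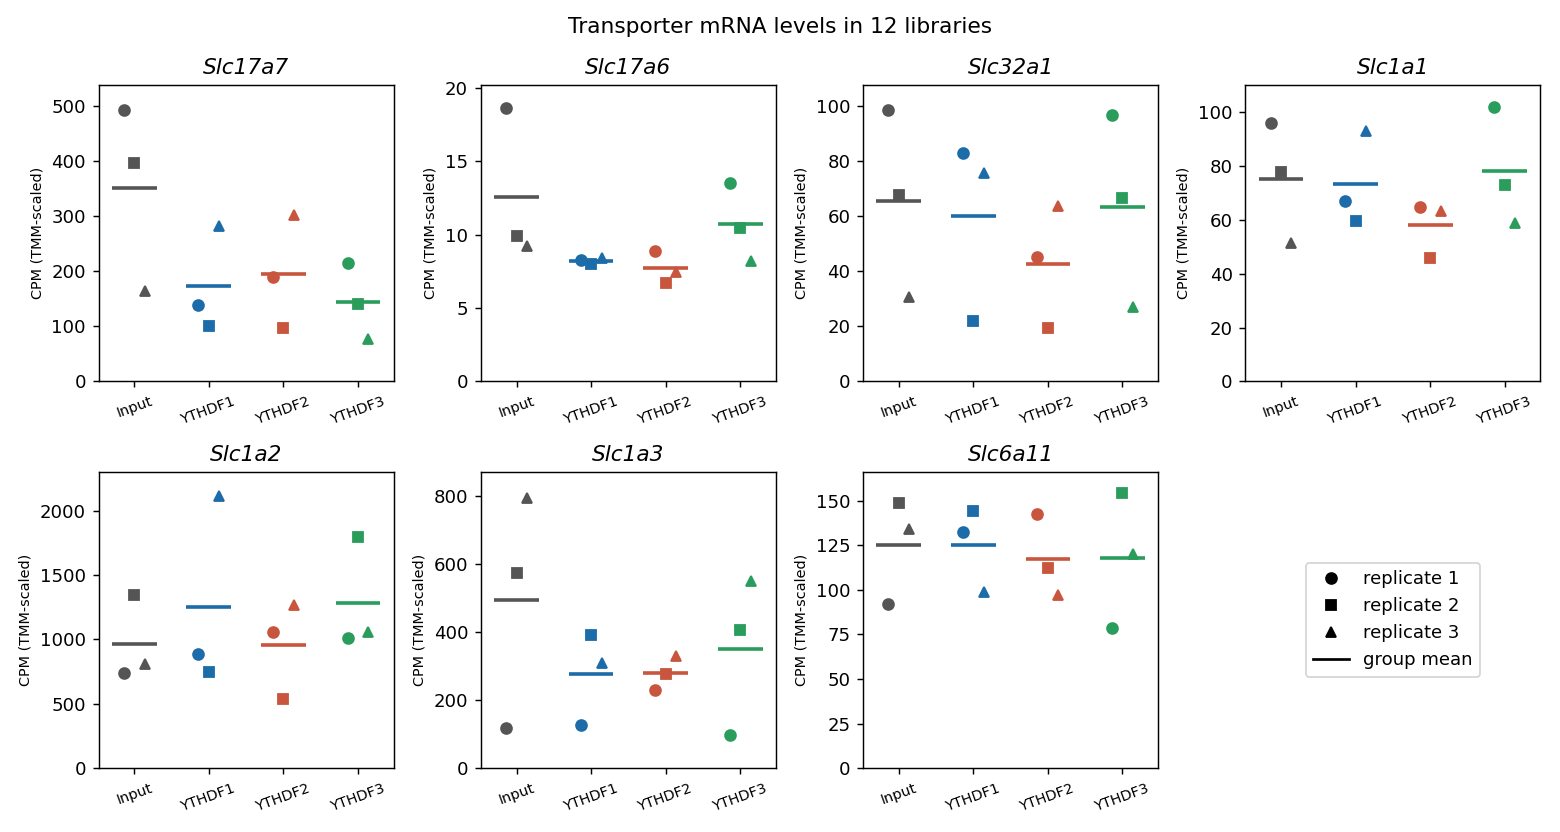
Normalized read counts (CPM, linear axis from 0) of the 7 transporter mRNAs in the 12 libraries, with one panel per gene, groups on the horizontal axis, symbols for replicate numbers and bars for group means. Values within a group differ up to 6.67-fold (Slc1a3 in Input). Slc17a6 in the YTHDF1 and YTHDF2 RIPs lies below all Input libraries, though it was called in neither. The share of all genes without such overlap was not computed.

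Several of these mRNAs varied between libraries of one group far more than most genes. In Input, the SD of log2 CPM was 1.46 for Slc1a3, 0.86 for Slc32a1 and 0.84 for Slc17a7, against a median of 0.26 over all genes tested. The biological coefficient of variation (the spread between replicates beyond counting error) was 0.565 for Slc1a3, 0.515 for Slc32a1 and 0.462 for Slc17a7. These values ranked at the 93.7th, 91.3rd and 87.6th percentile of the genes tested, whose median was 0.264. Slc17a6, Slc1a1 and Slc6a11 had 0.261, 0.262 and 0.259, near that median, and Slc1a2 had 0.386. The counts behind these values were high, from 130 for Slc32a1 in a YTHDF2 RIP library to 58344 for Slc1a2 in a YTHDF1 RIP library, except for Slc17a6, which had between 45 and 348.

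The first question was which transporter mRNAs were enriched or depleted in each RIP. Calls were made with edgeR's quasi-likelihood test over all genes, at a log2 fold change of 0.32 or more in either direction and a p no higher than 0.05 after Benjamini-Hochberg adjustment. For YTHDF1 0 of 7 members were called, against 53.0% of all genes. For YTHDF2 0 of 7 were called, against 34.7% of all genes, and for YTHDF3 0 of 7, against 39.5%. At an unadjusted p of 0.05, 0, 1 and 1 members passed, and DESeq2 called 0, 0 and 1. The median log2 fold change of the members was -0.13 for YTHDF1, -0.62 for YTHDF2 and -0.09 for YTHDF3, beside 0.02, 0.02 and 0.05 over all genes. The comparisons share the Input libraries, so their values are not independent of each other.

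**Figure D2:**
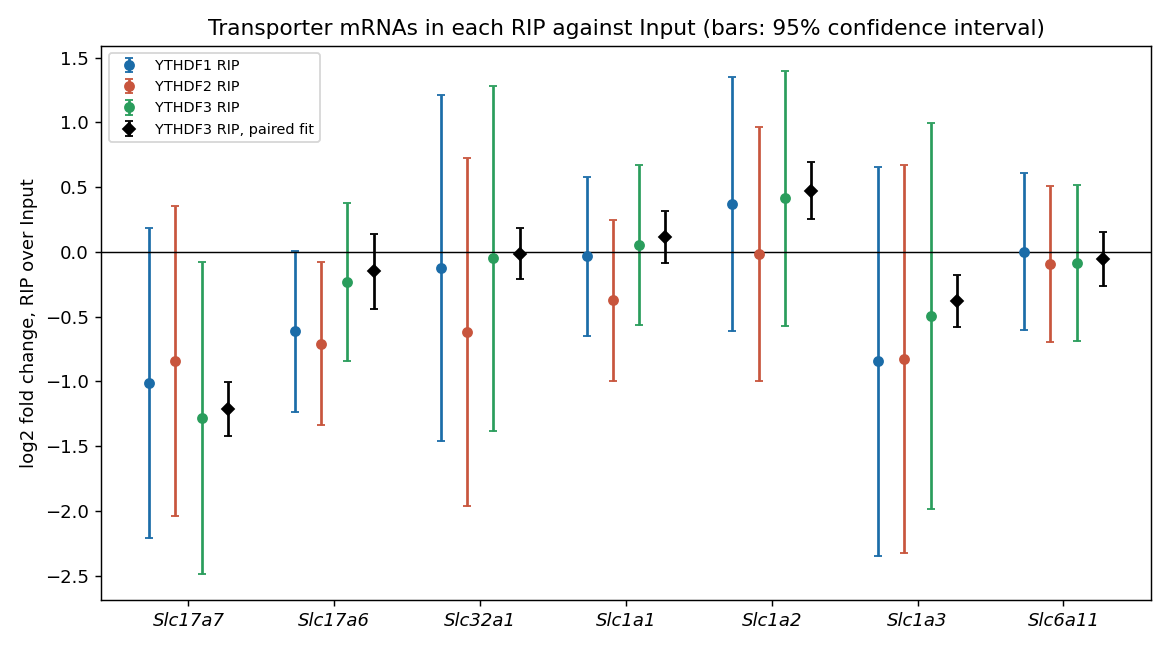
Log2 fold change of each RIP over Input for the 7 transporter mRNAs from edgeR, with 95% confidence intervals as bars and 0 marked by a line. Colours mark the 3 RIPs in the fit of all 12 libraries, and black diamonds the YTHDF3 RIP and Input libraries fitted alone as pairs of the same replicate number. Intervals of the first fit are wide, and the paired intervals of Slc17a7, Slc1a2 and Slc1a3 leave out 0.

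Slc17a7 encodes VGLUT1, the vesicular glutamate transporter of most hippocampal excitatory neurons. Its level was 492, 397 and 165 CPM in the Input libraries 1 to 3 and 215, 141 and 76.1 CPM in the YTHDF3 RIP libraries 1 to 3. It was 138, 101 and 282 CPM in the YTHDF1 RIP and 189, 96.2 and 302 CPM in the YTHDF2 RIP. The mean was lower in each RIP than in Input, but Input library 3 lay within the range of every RIP group, so the groups overlapped. The log2 fold change over Input was -1.01 ± 0.55 (SE) in the YTHDF1 RIP (adjusted p = 0.140), -0.84 ± 0.55 in the YTHDF2 RIP (adjusted p = 0.255) and -1.29 ± 0.55 in the YTHDF3 RIP (adjusted p = 0.0845). Without Input replicate 3, edgeR called Slc17a7 lower in the YTHDF1 RIP (-1.46, adjusted p = 0.0473) and in the YTHDF3 RIP (-1.59, adjusted p = 0.0435).

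Slc17a6 encodes VGLUT2, which in the forebrain is more typical of thalamic and developing neurons. Its level was 18.6, 9.88 and 9.21 CPM in Input and 13.5, 10.5 and 8.20 CPM in the YTHDF3 RIP, with overlap. It was 8.30, 7.99 and 8.41 CPM in the YTHDF1 RIP and 8.91, 6.72 and 7.49 CPM in the YTHDF2 RIP. Every YTHDF1 RIP and YTHDF2 RIP library was thus below every Input library, by little between YTHDF2 RIP library 1 (8.91 CPM) and Input library 3 (9.21 CPM). The share of all genes without such overlap was not computed, so how common this separation is among all genes is not known. The log2 fold change was -0.61 ± 0.28 in the YTHDF1 RIP (adjusted p = 0.0883), -0.71 ± 0.29 in the YTHDF2 RIP (adjusted p = 0.0774) and -0.23 ± 0.28 in the YTHDF3 RIP (adjusted p = 0.542), and none was called. Without Input replicate 3, edgeR called Slc17a6 lower in the YTHDF1 RIP (-0.90, adjusted p = 0.0276) and in the YTHDF2 RIP (-0.92, adjusted p = 0.0420). It was also called in 5 of 12 other settings for YTHDF1 and in 3 of 12 for YTHDF2.

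Slc32a1 encodes VGAT, which fills inhibitory vesicles and marks GABAergic neurons. Its level was 98.5, 67.6 and 30.5 CPM in Input and 96.7, 66.6 and 27.0 CPM in the YTHDF3 RIP. It was 82.9, 22.1 and 75.6 CPM in the YTHDF1 RIP and 45.1, 19.4 and 63.5 CPM in the YTHDF2 RIP. The lowest library was replicate 3 in Input and in the YTHDF3 RIP and replicate 2 in the YTHDF1 and YTHDF2 RIPs, and all groups overlapped. The log2 fold change was -0.13 ± 0.61 for YTHDF1, -0.62 ± 0.62 for YTHDF2 and -0.05 ± 0.61 for YTHDF3. The 95% interval in the YTHDF3 RIP ran from -1.38 to 1.28, wider than 2-fold in either direction.

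Slc1a1 encodes EAAC1, the glutamate transporter of neuronal cell bodies and dendrites. Its level was 96.1, 78.0 and 51.3 CPM in Input, 67.0, 59.6 and 93.2 CPM in the YTHDF1 RIP, 64.7, 45.7 and 63.5 CPM in the YTHDF2 RIP and 102, 73.1 and 58.7 CPM in the YTHDF3 RIP. All groups overlapped, and the log2 fold change over Input was -0.04 ± 0.28, -0.37 ± 0.28 and 0.05 ± 0.28. With the trend of log2 ratios with gene length removed, edgeR called Slc1a1 lower in the YTHDF1 RIP (-0.66, adjusted p = 0.0482).

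Slc1a2 encodes GLT1, which clears most of the synaptically released glutamate in the forebrain. Its level was 740, 1349 and 810 CPM in Input, 888, 745 and 2115 CPM in the YTHDF1 RIP, 1061, 535 and 1266 CPM in the YTHDF2 RIP and 1011, 1794 and 1056 CPM in the YTHDF3 RIP. The highest value of all was YTHDF1 RIP library 3, and every RIP group overlapped Input. The log2 fold change was 0.37 ± 0.45 for YTHDF1, -0.02 ± 0.45 for YTHDF2 and 0.41 ± 0.45 for YTHDF3. Slc1a2 has the longest exonic length of the members, 13133 bases, and removal of the length trend turned the YTHDF1 value to -0.78 and the YTHDF3 value to -0.24. Without YTHDF1 RIP replicate 3 the YTHDF1 value was -0.24.

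Slc1a3 encodes GLAST, the glutamate transporter of astrocytes and radial glia. Its level was 119, 574 and 797 CPM in Input, 126, 392 and 310 CPM in the YTHDF1 RIP, 231, 278 and 330 CPM in the YTHDF2 RIP and 97.5, 407 and 552 CPM in the YTHDF3 RIP. Input library 1 was below all RIP libraries but one, Input libraries 2 and 3 were the highest of all, and the groups overlapped. The log2 fold change was -0.85 ± 0.68, -0.83 ± 0.69 and -0.49 ± 0.68, with adjusted p = 0.321, 0.373 and 0.597. The sum of the astrocyte markers was 204, 1244 and 2108 CPM in Input libraries 1 to 3, in the same order as Slc1a3. The order was also the same in the YTHDF3 RIP (148, 745 and 1288 CPM) and the YTHDF1 RIP (388, 1044 and 705 CPM). It was not the same in the YTHDF2 RIP (771, 1297 and 1162 CPM). From Input library 2 to 3, Gfap, Aqp4, Aldh1l1 and Sox9 rose with Slc1a3, while Gja1, S100b, Aldoc and Fgfr3 fell. The part of these marker differences in the Slc1a3 values was not tested, and fewer astrocytes and less RNA per astrocyte cannot be told apart in bulk libraries.

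**Figure D3:**
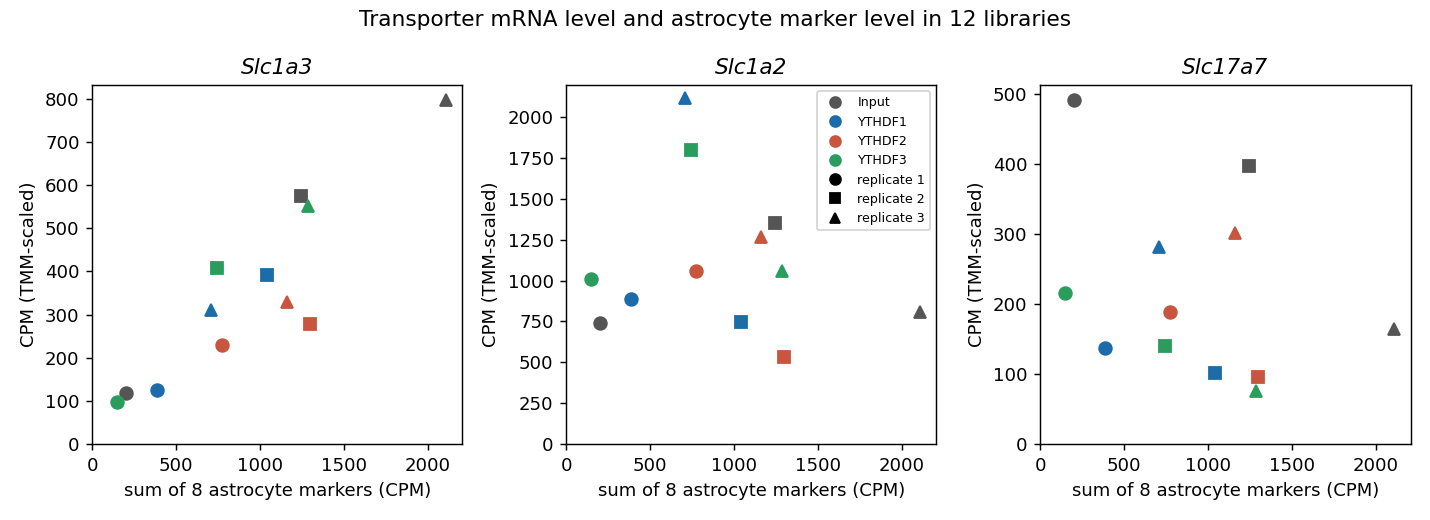
Level of Slc1a3, Slc1a2 and Slc17a7 (CPM) against the summed level of 8 astrocyte markers (CPM) in the 12 libraries, with colours for groups and symbols for replicate numbers. Slc1a3 is lowest in the libraries with the lowest marker sums (148, 204 and 388 CPM) and highest, at 797 CPM, in Input library 3, where the sum is 2108 CPM.

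Slc6a11 encodes GAT3, which takes up GABA mainly into astrocytes. Its level was 92.1, 149 and 134 CPM in Input, 133, 144 and 98.7 CPM in the YTHDF1 RIP, 143, 112 and 96.9 CPM in the YTHDF2 RIP and 78.3, 155 and 120 CPM in the YTHDF3 RIP. The groups overlapped throughout. The log2 fold change was 0.0026 ± 0.28, -0.09 ± 0.28 and -0.09 ± 0.28. The 95% interval in the YTHDF1 RIP ran from -0.60 to 0.61.

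In the YTHDF3 RIP and Input, libraries of the same replicate number deviated together from their group means, with correlations of 0.829, 0.528 and 0.804 for numbers 1, 2 and 3. These 6 libraries were therefore also fitted alone as 3 pairs with edgeR, where 3 of 7 members were called. The pairing was chosen from these same counts, and the p-values of the paired fit do not allow for that choice. In the paired fit 68.4% of all genes were called, 36.3% higher and 32.2% lower. The share of the 7 members was not tested against that of all genes. Slc17a7 and Slc1a3 were lower and Slc1a2 higher in the YTHDF3 RIP. The same 6 libraries without the pairing gave 0 of 7 members and 46.3% of all genes.

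Slc17a7 fell in each of the 3 pairs, with log2 ratios of YTHDF3 RIP over Input of -1.19, -1.50 and -1.12. The paired log2 fold change was -1.21 ± 0.10 (SE, 95% interval -1.42 to -1.01, adjusted p = 1.54e-10). Slc17a7 stayed lower and called in the 6 other settings of the paired fit, with values from -1.49 to -0.95, and when each pair was left out, with values from -1.32 to -1.14.

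Slc1a2 rose in each pair, with log2 ratios of 0.45, 0.41 and 0.38, and the paired log2 fold change was 0.47 ± 0.11 (95% interval 0.26 to 0.69, adjusted p = 0.000338). With the length trend removed it was -0.24, the opposite direction, and with TMM factors from protein-coding genes alone it was 0.31, short of the fold threshold. Slc1a3 fell in each pair, with log2 ratios of -0.29, -0.49 and -0.53, and the paired log2 fold change was -0.38 ± 0.10 (95% interval -0.58 to -0.18, adjusted p = 0.00116). With library size alone it was -0.11 and not called (adjusted p = 0.207). The astrocyte marker sum was also lower in the YTHDF3 RIP of each pair, 148 against 204, 745 against 1244 and 1288 against 2108 CPM. The markers did not move together, however. Gfap, Aqp4, S100b and Aldoc were lower in the YTHDF3 RIP of each pair, and Aldh1l1, Gja1, Sox9 and Fgfr3 were higher in each. The part of astrocyte RNA in the Slc1a3 value was not tested.

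Slc32a1, Slc1a1, Slc17a6 and Slc6a11 were not called in the paired fit. Slc32a1 was close to its own Input in every pair, with log2 ratios of -0.03, -0.02 and -0.18, while its level differed more than 3-fold between pairs. Its paired log2 fold change was -0.02, with a 95% interval from -0.21 to 0.18. The paired value was 0.12 for Slc1a1 (-0.08 to 0.31), -0.15 for Slc17a6 (-0.44 to 0.14) and -0.05 for Slc6a11 (-0.26 to 0.16). Of the 6 other settings of the paired fit, Slc1a1 was called in 2, higher with library size alone (0.38, adjusted p = 0.000866) and lower with the length trend removed (-0.38, adjusted p = 0.00146), and Slc17a6 was called in 1, lower with the length trend removed (-0.41, adjusted p = 0.0117).

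**Figure D4:**
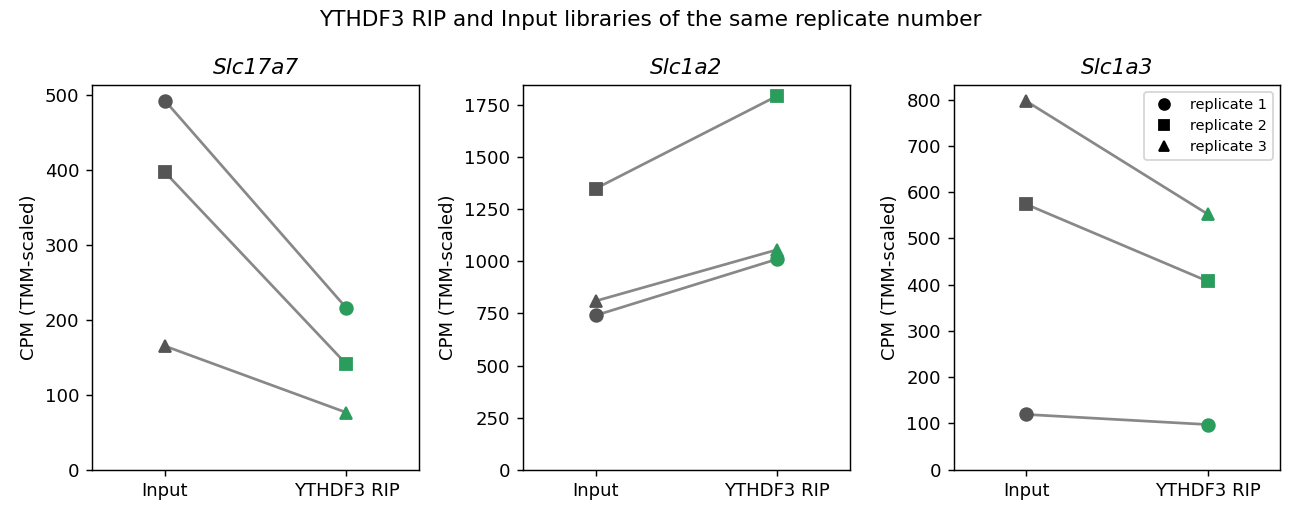
Levels of Slc17a7, Slc1a2 and Slc1a3 (CPM, linear axis from 0) in Input and in the YTHDF3 RIP, with lines joining libraries of the same replicate number. All 3 lines fall for Slc17a7 and Slc1a3 and all 3 rise for Slc1a2, although the levels of a gene differ between pairs.

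The second question was whether the 3 proteins differed in these mRNAs. With a call at 2-fold or more, 0 of 7 members differed between the YTHDF1 and YTHDF2 RIPs (17.5% of all genes), 0 of 7 between the YTHDF1 and YTHDF3 RIPs (14.5%) and 0 of 7 between the YTHDF2 and YTHDF3 RIPs (5.10%). At an unadjusted p of 0.05, 0 members passed in edgeR in each of these comparisons, and DESeq2 called 0 in each. A joint test of any difference among the RIPs in edgeR gave 0 of 7 members, against 32.3% of all genes. Slc32a1 had the widest differences, 0.49 ± 0.61 higher in the YTHDF1 than in the YTHDF2 RIP and 0.57 lower, on the log2 scale, in the YTHDF2 than in the YTHDF3 RIP (-0.57 ± 0.61). The 95% interval of the latter ran from -1.91 to 0.77. The lowest adjusted p was 0.331, for Slc17a6 in the YTHDF2 against the YTHDF3 RIP (-0.48 ± 0.29). For Slc6a11 the difference between these RIPs was -0.0052, with an interval from -0.61 to 0.60.

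Ratios of members within a library need no scaling between libraries, and 3 of them were compared with Input by a two-sided exact permutation test, in 9 tests. The counts in them were not divided by gene length, so each ratio is read only against the same ratio in other libraries. With 3 libraries against 3 the smallest p possible is 0.1, so no ratio could pass 0.05. The ratio of Slc17a7 to Slc17a6 counts, the balance of VGLUT1 to VGLUT2 mRNA, was 26.3, 40.0 and 17.8 in Input and 15.9, 13.4 and 9.26 in the YTHDF3 RIP. Every YTHDF3 RIP library was below every Input library (log2 difference -1.08, exact permutation p = 0.1, adjusted 0.450). The ratio of Slc1a2 to Slc17a7 ranged from 1.50 to 4.91 in Input and was 6.43, 7.35 and 7.51 in the YTHDF1 RIP, again without overlap (log2 difference 1.27, exact permutation p = 0.1, adjusted 0.450). In the YTHDF3 RIP it was 4.69, 12.8 and 13.9, higher than in the Input library of the same number in 3 of 3 pairs, with overlap between the groups (log2 difference 1.68, exact permutation p = 0.2). In the YTHDF2 RIP it was 5.61, 5.56 and 4.19 (log2 difference 0.79).

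The ratio of Slc1a2 to Slc1a3, the mRNAs of the main glial glutamate transporters, ranged from 1.02 to 6.20 in Input. It was 1.90 to 7.06 in the YTHDF1 RIP, 1.92 to 4.60 in the YTHDF2 RIP and 1.91 to 10.4 in the YTHDF3 RIP, with overlap in all. In the YTHDF3 pairs it was 10.4 against 6.20, 4.41 against 2.35 and 1.91 against 1.02, higher in the RIP in each. Slc1a2 is longer than Slc1a3 and than Slc17a7, and the log2 ratios of RIP over Input varied with gene length, so the length of the genes and these ratios cannot be told apart here.

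**Figure D5:**
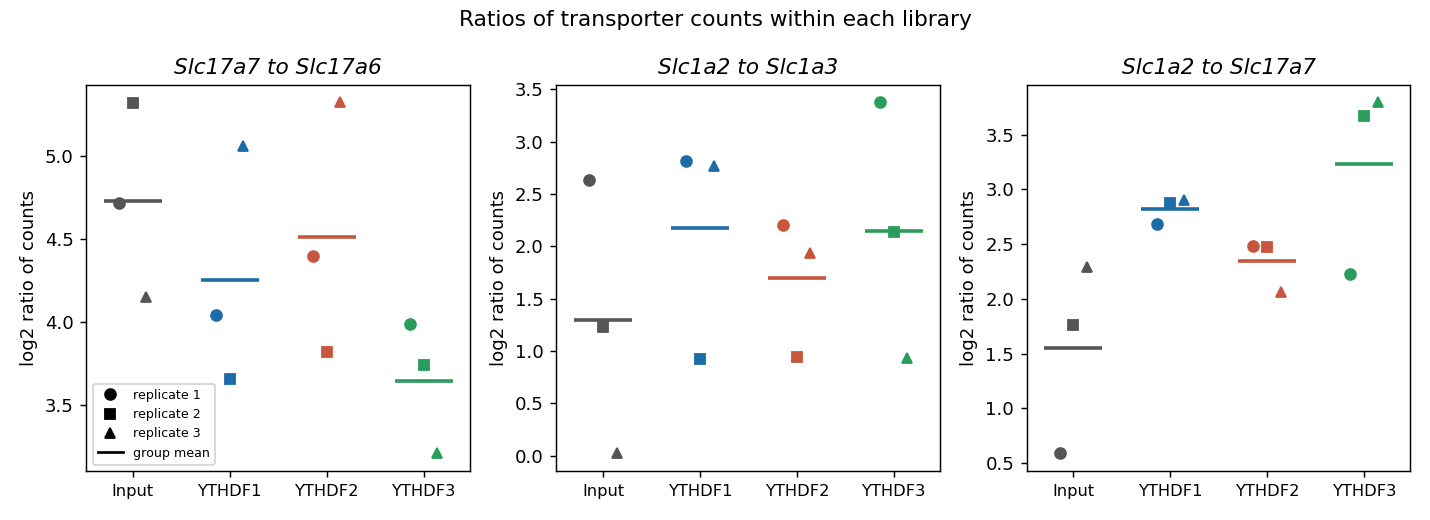
Log2 ratios of the counts of Slc17a7 to Slc17a6, Slc1a2 to Slc1a3 and Slc1a2 to Slc17a7 in each of the 12 libraries, with groups on the horizontal axis, symbols for replicate numbers and bars for group means. The YTHDF3 RIP lies below Input for the first ratio and the YTHDF1 RIP above Input for the third, without overlap.

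Other genes of the glutamate and GABA cycle were followed as a list of 24, of which 20 were tested. In the YTHDF1 RIP, where 53.0% of all genes were called, 2 of the list were higher and 2 lower than Input. They included the neutral amino acid transporter gene Slc1a4 (0.81 ± 0.20, adjusted p = 0.00531), higher, and the aspartate aminotransferase gene Got2 (-0.89 ± 0.28, adjusted p = 0.0199) and the amino acid transporter gene Slc38a7 (-0.51, adjusted p = 0.0129), both lower. In the YTHDF2 RIP, where 34.7% of all genes were called, 1 was higher, the glutamine transporter gene Slc38a2 (0.55), and 1 lower, Got2 (-1.36). In the YTHDF3 RIP, where 39.5% of all genes were called, 3 were higher, Slc38a2 (1.33), Slc38a1 (0.89) and Slc1a4 (0.57), and 1 lower, Got2 (-1.19). The paired fit, with 68.4% of all genes called, had 6 of the list higher and 5 lower. The median log2 fold change of the 20 was -0.22 for YTHDF1, -0.30 for YTHDF2 and -0.05 for YTHDF3, beside 0.02, 0.02 and 0.05 over all genes. Slc38a2 was also lower in the YTHDF1 than in the YTHDF3 RIP (-1.13 ± 0.16, adjusted p = 0.000776), where 14.5% of all genes were called. It was the 1 gene of the list called between RIPs at 2-fold or more. Short of 2-fold, adjusted p in edgeR was also below 0.05 for Slc38a2 in the YTHDF2 against the YTHDF3 RIP (-0.78). The same held for Slc38a7 in the YTHDF1 RIP against the YTHDF3 RIP (-0.64) and against the YTHDF2 RIP (-0.45).

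Enzymes known from the same cells as these members, 3 genes of the list chosen after their values were seen, were also compared in the YTHDF3 pairs. Beside Slc32a1 at -0.02, the GABA synthesis genes of the same neurons were at 0.41 ± 0.09 for Gad1, called higher, and -0.36 ± 0.09 for Gad2, called lower. Beside Slc1a3 at -0.38, glutamine synthetase Glul, an astrocyte enzyme, was called lower at -0.63 ± 0.11. Other astrocyte genes went both ways. Slc1a2 was called higher at 0.47, and the markers Aldh1l1, Gja1, Sox9 and Fgfr3 were higher in the YTHDF3 RIP of each pair. The markers Gfap, Aqp4, S100b and Aldoc were lower in the YTHDF3 RIP of each pair.

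The pattern of each member over the 12 libraries was compared with 9937 abundant protein-coding genes by Pearson's r of log2 CPM, as a description over libraries that share groups. Slc32a1 was most like Nap1l5 (0.973) and Cx3cl1 (0.970), Slc17a7 most like Bcat1 (0.968), and Slc1a1 most like the AMPA receptor gene Gria4 (0.971) and Ndrg4 (0.957). Slc1a3 was most like Acadl (0.957) and Slco1c1 (0.938), Slc17a6 most like Zwint (0.929) and Tspan18 (0.913), and Slc1a2 most like Slc41a1 (0.912) and 2610507B11Rik (0.885). Slc6a11 had the weakest likeness, to Col18a1 (0.830) and to the glial potassium channel gene Kcnj10 (0.826). Among the members, r was highest between Slc32a1 and Slc1a1 (0.86) and lowest between Slc32a1 and Slc1a3 (-0.58). Slc1a3 and Slc6a11 varied together (0.58), while Slc1a2 followed Slc1a3 less (0.20) than it followed Slc32a1 (0.50).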

How the data were processed

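RIP-seq was carried out by the authors with a stranded total RNA kit that carries unique molecular identifiers. Per the submitters' processing notes, UMI-tools 1.1.1, cutadapt 3.4, STAR 2.7.7a and featureCounts 2.0.1 were used with the mm10 build. The deposited values are raw counts per gene of Ensembl release 97 (GRCm38), counted by strand. A read over several genes, and each of several alignments of a read, was counted for every gene. The authors also deposited DESeq2 tables of fold changes and p-values, which served here only for gene names.

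Genes whose normalized counts averaged 10 or more were kept, TMM factors computed over them, and 1 edgeR 4.0.16 quasi-likelihood model with 4 groups fitted to the 12 libraries in R 4.3.3. Intervals are at 95%. Log2 CPM used a prior count of 2. For within-library ratios 0.5 was added to each count. On simulated counts the fit called nearly all of the larger changes set in and few of the smaller ones, and the removal of the length trend took out most of a trend set in. The methods describe a lysate pool split between pull-downs that shared an Input sample, but the labels do not tie replicate numbers to it. The numbers were taken to pair Input with the YTHDF3 RIP because every correlation of deviations exceeded 0.1, which did not hold for the other RIPs. This rule was applied to the same counts that the paired fit tests, so the paired p-values do not allow for that choice.

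All 7 members were named in every comparison, with at most 4 genes of the list of 24 a comparison and the 2 genes most like each member, apart from items that are not reported here. The members and lists were chosen with earlier results of these data known. Alternatives were DESeq2 1.42.0, its size factors, library size alone, TMM over protein-coding genes or before the filter, leaving out the filter, a minimum mean of 50, a block for the replicate number, taking out the trend with gene length (loess, span 0.3), 2 groups fitted alone, other added counts and each library left out. Those of the paired fit were chosen after seeing the data.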

Additional observations from a re-analysis of the deposited data

How the results depend on the processing

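The count of members called against Input, 0 of 7 in each RIP, depended on several settings. In the YTHDF1 RIP it was 2 with library size alone (Slc17a7, Slc17a6), 1 with TMM over protein-coding genes and 1 with a minimum mean of 50 (Slc17a6 in both), 2 without a filter (Slc17a7, Slc1a3), 2 with the length trend removed (Slc17a6, Slc1a1) and 3 with the replicate block added to it. In the YTHDF2 RIP it was 1 with TMM over protein-coding genes, 1 with the length trend removed and 1 with the block as well (Slc17a6 in all), and 2 without a filter (Slc17a7, Slc1a3). In the YTHDF3 RIP it was 1 with DESeq2 and 1 without a filter (Slc17a7 in both). Between the YTHDF1 and YTHDF3 RIPs it was 1 with library size alone. In the first comparison, each library left out gave 0 to 2 calls, in the next 0 to 1 and in the YTHDF3 RIP 0 to 1, with calls when Input replicate 3 was left out. The cause was not tested.

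With the replicate block in the fit of all libraries, 0 of 7 members were called in each comparison with Input. With Input and the YTHDF3 RIP fitted alone with the replicate block, 3 were called, and with the other RIPs 0. For YTHDF1 and YTHDF2 the libraries were taken to share only a number with Input, since no correlation of deviations between libraries of one number exceeded 0.178 and no library was most like its own number. Input replicate 3 correlated with replicate 2 of the YTHDF1 RIP (0.467) and of the YTHDF2 RIP (0.560). The labels do not say whether numbers mark a shared lysate, no other pairing was fitted, and the values for these RIPs are unpaired. In the paired fit, DESeq2, its size factors, a minimum mean of 50 and each pair left out gave the same 3 calls. Slc1a1 was also called with library size alone (0.38) and, like Slc17a6 (-0.41), with the length trend removed. There, with library size alone and the replicate block, Slc17a6 turned to 0.12, Slc32a1 to 0.25 and Slc6a11 to 0.21. With TMM over protein-coding genes and the block Slc1a1 turned to -0.050, and with the length trend removed Slc32a1 turned to 0.19, Slc1a1 to -0.38 and Slc1a2 to -0.24.

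Slc17a7 was below Input in every RIP under all settings and with each library left out, as was Slc17a6 for YTHDF1 and YTHDF2. Several uncalled values changed sign, not all of them near 0: those of Slc1a2 in the YTHDF1 RIP (0.37) and YTHDF3 RIP (0.41) and of Slc1a3 in the YTHDF3 RIP (-0.49) lay beyond the fold threshold. For Slc6a11 in the YTHDF1 RIP the value was -0.030 with DESeq2 and with its size factors in edgeR, -0.39 with library size alone, -0.23 with TMM over protein-coding genes, -0.060 with TMM before the filter and without a filter, -0.11 with a minimum mean of 50, -0.20 with the length trend removed, with the block or without it, and -0.096 and -0.095 with 2 groups fitted alone, without and with the block. With library size alone, which moved the median of all genes to -0.38, 0.09 and 0.38 for YTHDF1, YTHDF2 and YTHDF3, Slc1a2 was -0.052 in the YTHDF1 and 0.032 in the YTHDF2 RIP, while for YTHDF3 Slc17a6 was 0.083, Slc32a1 0.25 and Slc6a11 0.25. In the YTHDF3 RIP Slc1a1 was -0.0070 with TMM over protein-coding genes, and with TMM before the filter or no filter Slc32a1 was 0.059 and Slc6a11 0.049. With the length trend removed, Slc32a1 was 0.18 and Slc1a2 -0.78 in the YTHDF1 RIP, and Slc32a1 0.21, Slc1a1 -0.38 and Slc1a2 -0.24 in the YTHDF3 RIP. With the block added these were 0.11, -0.81, 0.20, -0.39 and -0.23.

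With libraries left out, values that changed sign ran in the YTHDF1 RIP from -0.56 to 0.29 for Slc32a1, -0.35 to 0.18 for Slc1a1, -0.18 to 0.15 for Slc6a11 and -0.24 to 0.69 for Slc1a2. In the YTHDF2 RIP they ran from -0.28 to 0.30 for Slc1a2 and -0.27 to 0.050 for Slc6a11. In the YTHDF3 RIP they ran from -0.43 to 0.17 for Slc17a6, -0.49 to 0.37 for Slc32a1, -0.30 to 0.13 for Slc6a11, -0.19 to 0.27 for Slc1a1 and -0.97 to 0.096 for Slc1a3. The log2 ratio of Slc17a7 to Slc17a6 in the YTHDF2 RIP ran from -0.62 to 0.13 and that of Slc1a2 to Slc1a3 from -0.24 to 1.07. The other 7 ratios kept their direction with each library left out, and all 9 kept it with 0 or 5 added to the counts. Of all genes, library size alone called 3087 higher and 6219 lower in the YTHDF1 RIP, against 4662 and 4414, and 4822 and 3031 in the YTHDF3 RIP, against 2817 and 3940. Fitted alone with the block, the calls were 5426 for YTHDF1 against 9076, and 11719 for YTHDF3 against 6757. Between RIPs the counts moved by over 1.5 times for YTHDF1 against YTHDF3, from 2479 to 4207 with library size alone, and to 1535 and 419 with these groups fitted alone, without and with the block. For YTHDF2 against YTHDF3 they moved from 874 to 1317 with DESeq2, 1812 without a filter, and 1313 and 393 with these groups fitted alone.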
